A study of Rattus norvegicus with 18 samples.

Results

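Imprinted genes, which mammals express mainly or only from the allele inherited from a given parent, were followed in RNA-seq of rat epiblast and primordial germ cells (PGCs). The members were a list of 36 genes imprinted in mouse, 17 of them expressed from the maternal allele and 19 from the paternal allele there. Of these, 32 had a line in the expression table of 32545 lines (15 maternally and 17 paternally expressed), and 31 passed the filter on low values (15 maternally and 16 paternally expressed). Rasgrf1, a Ras exchange factor, did not pass: its highest value was 1.03 RPKM. The expression of H19, Meg3, Dio3 and Peg10 was not analysed here.

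The study traced rat germ cells with a fluorescent reporter of Prdm14, a transcriptional regulator needed for germ cell formation in mouse. There were 18 libraries from Wistar rats (Crlj:WI), and each carried the genotype Prdm14-Venus, epiblast included, so no group was free of the reporter. The 12 PGC libraries came from embryonic day (E) 9.5, E10.5, E11.5 and E12.5, with 2 libraries each and no sex in the labels, and from E15.5, with 2 female and 2 male libraries. The 6 epiblast libraries came from E7.25 and E7.75, each with 1 female and 2 male libraries. Values were the authors' RPKM (reads scaled to transcript length and library size), summed over both parental alleles, so none of them shows which allele was read. The labels do not say whether replicates came from separate animals or pools, so p-values measure the spread between libraries.

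Imprinted expression rests on differential DNA methylation of control regions, which is laid down in the parents' gametes and kept in the cells of the body. Germ cells erase this methylation on their way to and in the gonad and later set it anew according to the sex of the embryo. In mouse, many paternally expressed genes promote growth of the embryo and placenta, while several maternally expressed genes restrain it. When marks are lost, a gene can become active or silent on both alleles, depending on the locus, so that the summed level may move either way.

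Promoter sequences of 5 members on which results below turn are shown because cytosine methylation acts at CpG dinucleotides, which are printed in capitals. Each window runs 5′ to 3′ on the gene's strand, starting 250 bases before the annotated start and ending 50 bases after it, in RefSeq annotation of the GRCr8 build.
Phlda2 promoter, chr1:208127192-208127491, minus strand: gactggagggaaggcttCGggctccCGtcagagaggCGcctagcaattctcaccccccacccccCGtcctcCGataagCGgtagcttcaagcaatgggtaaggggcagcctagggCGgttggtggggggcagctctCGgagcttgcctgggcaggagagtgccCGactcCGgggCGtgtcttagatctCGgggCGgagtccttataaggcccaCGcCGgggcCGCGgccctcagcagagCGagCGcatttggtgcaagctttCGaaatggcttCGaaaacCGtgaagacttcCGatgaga
Grb10 promoter, chr14:90816338-90816637, minus strand: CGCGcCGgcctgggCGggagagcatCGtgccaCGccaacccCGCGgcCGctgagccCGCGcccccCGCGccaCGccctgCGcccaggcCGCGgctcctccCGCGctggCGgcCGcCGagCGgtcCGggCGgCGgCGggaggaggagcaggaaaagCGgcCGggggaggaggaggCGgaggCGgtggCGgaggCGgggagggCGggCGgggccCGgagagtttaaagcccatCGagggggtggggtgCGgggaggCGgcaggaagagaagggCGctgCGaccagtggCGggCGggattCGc
Peg3 promoter, chr1:76130744-76131043, plus strand: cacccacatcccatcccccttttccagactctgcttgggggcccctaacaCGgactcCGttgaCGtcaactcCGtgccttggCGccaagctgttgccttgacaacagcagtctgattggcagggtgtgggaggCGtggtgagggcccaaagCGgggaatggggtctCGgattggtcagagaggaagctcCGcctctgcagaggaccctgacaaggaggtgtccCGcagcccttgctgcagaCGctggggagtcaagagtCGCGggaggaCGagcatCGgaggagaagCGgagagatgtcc
Mest promoter, chr4:60321564-60321863, plus strand: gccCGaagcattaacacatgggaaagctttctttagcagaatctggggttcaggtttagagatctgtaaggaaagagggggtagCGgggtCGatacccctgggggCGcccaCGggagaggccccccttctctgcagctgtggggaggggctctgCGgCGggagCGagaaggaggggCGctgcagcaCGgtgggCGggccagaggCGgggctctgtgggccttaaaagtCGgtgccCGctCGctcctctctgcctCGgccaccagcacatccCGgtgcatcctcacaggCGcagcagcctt
Snrpn promoter, chr1:120338870-120339169, minus strand: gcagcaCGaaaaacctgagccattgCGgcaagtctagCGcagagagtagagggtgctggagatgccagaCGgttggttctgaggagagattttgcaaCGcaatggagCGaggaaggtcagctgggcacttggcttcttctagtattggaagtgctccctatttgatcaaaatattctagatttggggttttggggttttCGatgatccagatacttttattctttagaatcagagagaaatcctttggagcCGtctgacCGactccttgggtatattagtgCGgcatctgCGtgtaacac

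The Phlda2 window held 23 CpGs, the Grb10 window 44, the Peg3 window 16, the Mest window 18 and the Snrpn window 11. Windows were found for 30 members (33 windows, since Igf2 and Gnas have several annotated starts), with a median of 18 CpGs and a range of 3 to 45. They include windows of Meg3, Dio3, Peg10 and Rasgrf1, which were not tested for expression. The median was 20 over 15 windows of maternally expressed members and 16.5 over 18 windows of paternally expressed members, against 20 over 10681 windows of tested genes. The letters TGCCGC, read on both strands, are the core of the sequence bound by ZFP57, a protein that protects methylated imprints in mouse. They occurred in 11 of the members' windows (33.3%), in 3 windows of maternally expressed members (20.0%) and in 8 of paternally expressed members (44.4%), against 20.6% of windows of tested genes. The 11 include the windows of Meg3, Peg10 and Rasgrf1, so the members' set is not limited to tested genes as the other set is. In the Snrpn window they occurred 2 times. These matches describe letters in the windows and do not show binding.

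The libraries differed in depth. Relative to the E7.75 female epiblast library, depth estimated from the spacing of low RPKM values was 82.6% to 121% in 14 libraries, but 20.7% and 22.1% in the E10.5 libraries and 22.9% and 22.3% in the E11.5 libraries. A zero was given to 21.3% and 21.6% of tested lines by the E10.5 libraries, against 8.29% to 15.4% by the others. The housekeeping gene Fau was listed at 0 in all 18 libraries and Hprt1 in 11, so a value of 0 is given here as listed, and no fold is printed for a gene whose libraries in a group were all listed at 0. Such genes stayed in the test on log2(RPKM + 1), where their estimate depends on the pseudocount, and so in the counts and medians below. Gnas, Igf2r, Kcnq1 and Ube3a have antisense partners in mouse, and no label states that counting used strand, so reads of such partners could not be told apart. Germ cell markers separated PGCs from epiblast: Tfap2c, a germ cell transcription factor, lay between 196 and 396 RPKM in PGC libraries, against 0 to 0.639 RPKM in epiblast libraries. In all, 7 of 8 germ cell markers rose in PGCs, and Pou5f1, which both tissues express, fell. Of the epiblast markers, 4 of 4 tested fell in PGCs, while Fgf5, a defining marker of epiblast in mouse, was listed at 0 in every library.

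The levels of imprinted genes ranged from 0 to 1301 RPKM. In epiblast the highest members were Gnas, which encodes the stimulatory G protein alpha subunit, Snrpn, which encodes a splicing protein, and Mest, a hydrolase-like gene of mesoderm. By the mean of each group, 17 of the 32 members with a line (53.1%; 8 maternally and 9 paternally expressed) were highest in E9.5 PGCs, against 16.5% of all tested lines. The E7.25 epiblast held the highest mean of 7 members (21.9%, against 12.6% of tested lines). E12.5 PGCs held that of 3, all paternally expressed (Impact, Mkrn3 and Usp29). The order of neighbouring groups often fell within the spread of their libraries: the mean of Usp29 at E12.5 was 2.004 RPKM, and its E9.5 values were 1.95 and 1.84 RPKM.

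**Figure D1:**
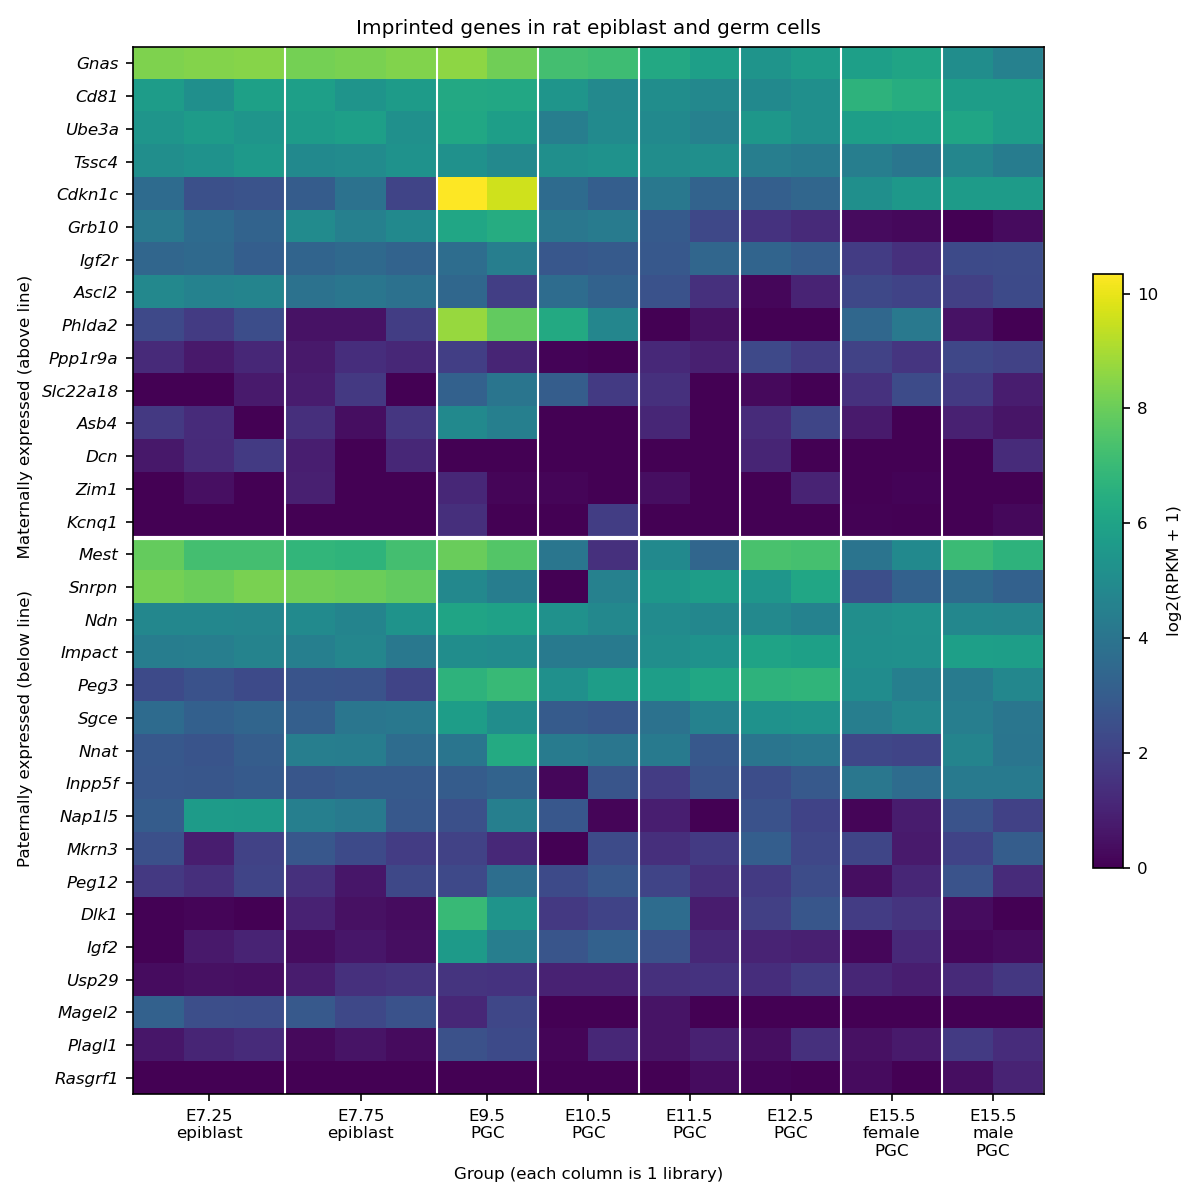
Level of each of the 32 imprinted genes with a line, as log2(RPKM + 1), in each of 18 libraries. Rows are genes, maternally expressed above the white line and paternally expressed below it, sorted by mean; columns are libraries by group. The mean of the E9.5 PGC columns is the highest of the groups for 17 members, among them Cdkn1c, Phlda2, Dlk1 and Igf2, while Snrpn is brightest in epiblast.

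The first question of the stage series is how E9.5 PGCs differ from late epiblast, from which germ cells arise. In E9.5 PGCs, 12 of 31 imprinted genes rose and 2 fell relative to E7.75 epiblast. The direction was the same in both parental classes: 5 of 15 maternally expressed members rose and 1 fell, and 7 of 16 paternally expressed members rose and 1 fell. Over all tested lines 27.6% passed, 16.3% higher and 11.3% lower. The median log2 fold change was 0.60 for maternally and 0.93 for paternally expressed members, against 0.04 for all lines. Without members counted here as imprinted in mouse only in some tissues or transcripts these medians were 2.11 and 1.004, so their order turned. The members so left out included Cdkn1c. In a fit of the E9.5 and E7.75 libraries alone 9 members passed instead of 14.

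The members with the largest rises were Phlda2 and Cdkn1c, both maternally expressed. Cdkn1c (ENSRNOG00000059500), an inhibitor of cyclin-dependent kinases, had 1301 and 773 RPKM in E9.5 PGCs, against 7.003, 14.0 and 3.39 RPKM in E7.75 epiblast. The log2 fold change of Cdkn1c was 6.96 ± 0.46 (SE; limma adjusted p = 1.37e-07). Phlda2 (ENSRNOG00000020614), which limits placental growth in mouse, had 429 and 231 RPKM in E9.5 PGCs, against 0.418, 0.414 and 2.69 RPKM in E7.75 epiblast (7.34 ± 0.51, limma adjusted p = 2.24e-07). For both genes the lowest E9.5 library lay far above the highest epiblast library. Grb10 (ENSRNOG00000004290), an adaptor that dampens insulin and growth factor signalling, had 69.3 and 82.9 RPKM in E9.5 PGCs, against 31.2, 21.9 and 29.4 RPKM in E7.75 epiblast (1.44 ± 0.31, limma adjusted p = 0.00288). Asb4, a component of ubiquitin ligases, had 28.9 and 21.2 RPKM in E9.5 PGCs, against 0.293 to 2.12 RPKM in E7.75 epiblast. Slc22a18, a transporter gene next to Phlda2, had 8.32 and 15.1 RPKM in E9.5 PGCs, against 0 to 2.27 RPKM. The groups did not overlap for any of these 5 genes, which were named because they passed on the same values.

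Of the paternally expressed members, Dlk1, Igf2 and Peg3 had the largest rises at this stage. Dlk1 (ENSRNOG00000019584), a membrane protein related to Notch ligands, had 123 and 39.9 RPKM in E9.5 PGCs, against 1.01, 0.369 and 0.258 RPKM in E7.75 epiblast (log2 fold change 5.56 ± 0.65, limma adjusted p = 2.93e-05). Igf2 (ENSRNOG00000020369), the growth factor insulin-like growth factor 2, had 49.0 and 20.7 RPKM in E9.5 PGCs, against 0.267, 0.524 and 0.307 RPKM (4.60 ± 0.48, limma adjusted p = 9.8e-06). The E9.5 libraries themselves differed for both genes, with replicate 1 above replicate 2. Peg3 (ENSRNOG00000014791), a large zinc finger protein that acts on growth and maternal behaviour in mouse, had 101 and 126 RPKM in E9.5 PGCs, against 5.41, 5.23 and 3.31 RPKM in E7.75 epiblast (4.36 ± 0.25, limma adjusted p = 5.35e-08). Sgce, which encodes epsilon-sarcoglycan, Plagl1, a zinc finger regulator of other imprinted genes in mouse, Ndn, a growth-suppressing MAGE family gene, and Impact, a translational regulator, rose by log2 fold changes of 1.64, 2.09, 1.005 and 0.58. Plagl1 remained low in absolute level, with 4.97 and 4.07 RPKM in E9.5 PGCs.

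The 2 members that fell at E9.5 were Snrpn and Ascl2. Snrpn (ENSRNOG00000059764) had 27.2 and 19.8 RPKM in E9.5 PGCs, against 273, 260 and 230 RPKM in E7.75 epiblast (-3.39 ± 0.82, limma adjusted p = 0.00694). Ascl2, a transcription factor of the trophoblast lineage in mouse, had 10.1 and 2.77 RPKM in E9.5 PGCs, against 14.1, 15.6 and 13.6 RPKM in E7.75 epiblast (-1.26 ± 0.44, limma adjusted p = 0.045). The change of Ascl2 did not pass in 15 of 24 alternatives, among them each that left out 1 of the 6 epiblast libraries. Without E9.5 replicate 2 the changes of Snrpn and Ascl2 no longer passed, and without either E9.5 library or the E7.75 female library that of Impact did not. The share of all calls that were higher was 59.0%, against 48.3% after quantile normalization, under which 11 members rose and 3 fell.

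Markers of other cell types were also high in the E9.5 libraries. Over 11 endothelial markers with a line, the summed level was 303 and 126 RPKM in E9.5 PGCs, against 19.4 to 20.3 RPKM in E7.75 epiblast and 3.72 to 26.6 RPKM in later PGCs, and 5 of 10 tested rose. Kdr was at 55.2 and 25.3 RPKM in the E9.5 libraries, while the defining endothelial gene Cdh5 was at 2.83 and 0 RPKM. Over 12 mesenchyme markers the sum was 183 and 189 RPKM in E9.5 PGCs, against 1.10 to 4.85 RPKM in E7.75 epiblast and 4.13 to 24.9 RPKM in later PGCs. Of these markers 8 of 10 tested rose, while the collagen gene Col1a2 was listed at 0 in both E9.5 libraries and Col3a1 at 0 and 0.253 RPKM. Over 9 extraembryonic mesoderm markers the sum was 687 and 653 RPKM in E9.5 PGCs, against 17.8 to 27.5 RPKM in E7.75 epiblast, and 9 of 9 rose. Hand1 made up 261 and 245 RPKM of it. Trophoblast markers, a list that also holds Hand1, summed to 336 and 287 RPKM in E9.5 PGCs, against 15.04 to 27.2 RPKM, most of it Hand1. Of 4 tested, Cdx2, Gata3 and Hand1 rose and Eomes fell, and the placental hormone genes Prl3d1 and Prl2c1 were at 0 in the E9.5 libraries. Of 7 tested gut epithelium markers 2 rose and 3 fell, and blood markers summed to at most 5.37 RPKM in any library. Their part in the rise of imprinted genes at E9.5 was not tested. In bulk samples fewer cells of a type and less RNA per cell cannot be told apart.

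**Figure D2:**
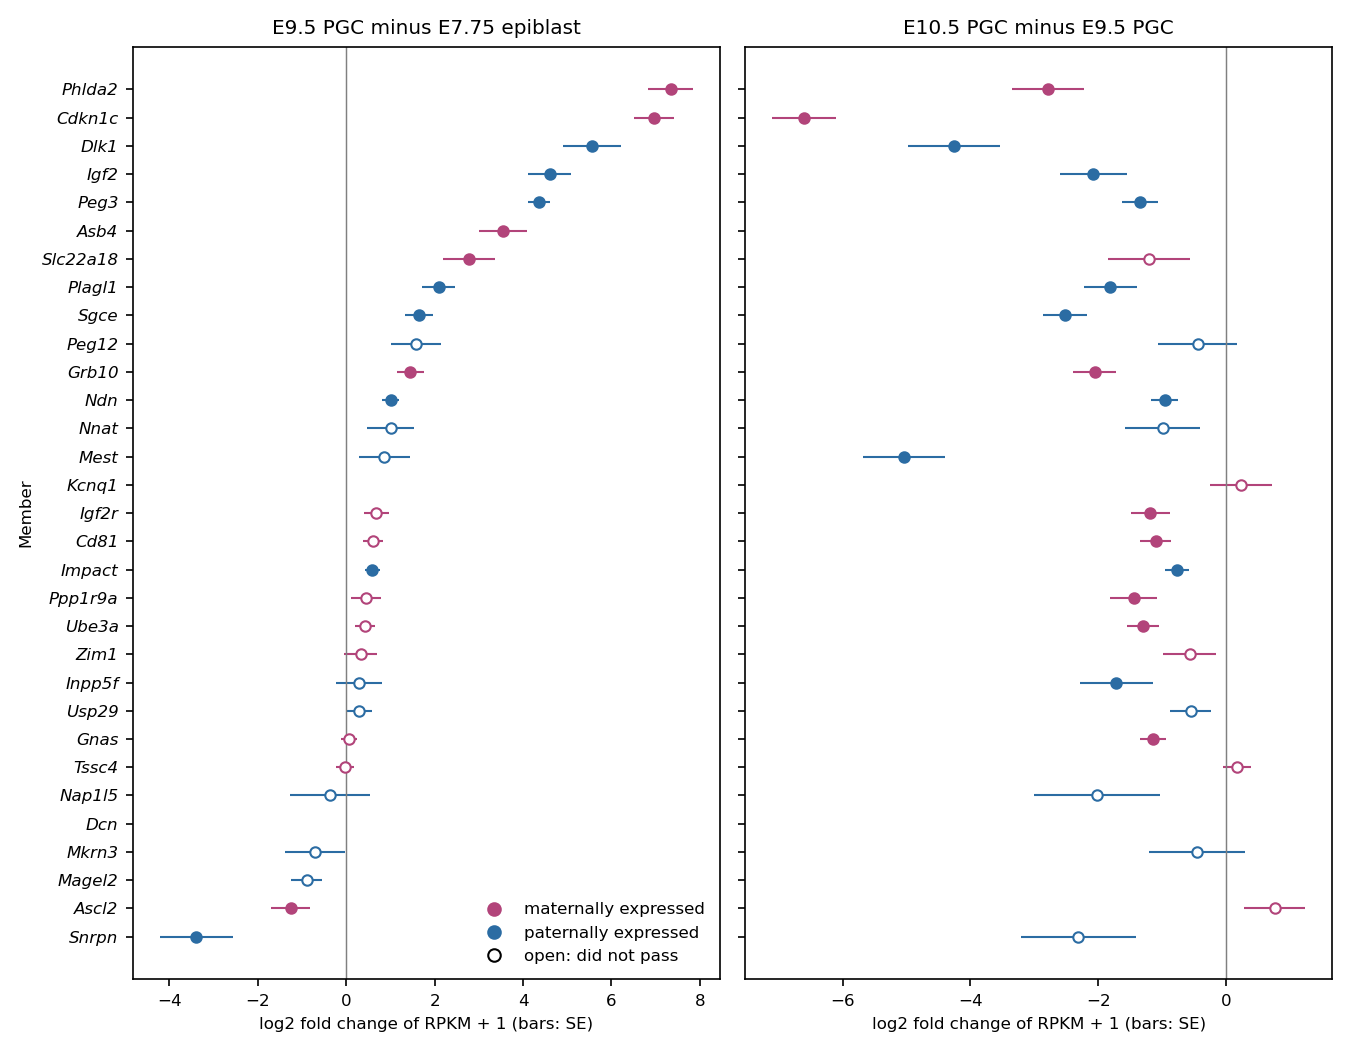
Log2 fold change of RPKM + 1 of the 31 tested imprinted genes, E9.5 PGC minus E7.75 epiblast on the left and E10.5 PGC minus E9.5 PGC on the right. Points are limma estimates and bars their SE, filled where the adjusted p was under 0.05. Both comparisons use the E9.5 libraries, and no point is drawn for a gene listed at 0 throughout a group (Dcn and Kcnq1 on the left; Asb4, Dcn and Magel2 on the right). Phlda2 and Cdkn1c lie farthest to the right in the left panel, and every filled point in the right panel is below 0.

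From E9.5 to E10.5, when germ cells migrate towards the genital ridges in rodents, most tested imprinted genes fell. In E10.5 PGCs 19 of 31 members fell and 0 rose relative to E9.5 PGCs. Of the 28 members with a value above 0 in each group, 17 fell. At an unadjusted p under 0.05 the count of members was 20, beside 5915 of all 14865 lines. Of the maternally expressed members 9 of 15 fell, and of the paternally expressed 10 of 16. Over all tested lines 29.9% passed, 18.4% lower and 11.5% higher. The median log2 fold change was -1.18 for maternally and -1.70 for paternally expressed members, against -0.16 for all lines, a median that quantile normalization moved to 0.03. After that normalization 14 members fell and 0 rose, and the share of all calls that were higher was 51.7%, against 38.5% as deposited. The E9.5 libraries enter this comparison and that with epiblast, so their values bear on both.

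Cdkn1c fell to 11.3 and 7.56 RPKM in E10.5 PGCs, against 1301 and 773 RPKM in E9.5 PGCs (log2 fold change -6.61 ± 0.50, limma adjusted p = 1.76e-06). Phlda2 had 76.9 and 25.9 RPKM in E10.5 PGCs, against 429 and 231 RPKM (-2.79 ± 0.56, limma adjusted p = 0.00201). At E10.5 Cdkn1c was within the range of the E7.75 epiblast libraries, while Phlda2 was above every epiblast library. Gnas (ENSRNOG00000047374) had 151 and 139 RPKM in E10.5 PGCs, against 379 and 272 RPKM in E9.5 PGCs (-1.14 ± 0.20, limma adjusted p = 0.000766). Grb10 had 16.2 and 18.9 RPKM in E10.5 PGCs, against 69.3 and 82.9 RPKM in E9.5 PGCs (-2.05 ± 0.34). Ube3a, a ubiquitin ligase imprinted only in neurons in mouse, Cd81, a tetraspanin, Igf2r, the receptor that clears IGF2, and Ppp1r9a, an actin-binding protein, fell by 1.30, 1.10, 1.18 and 1.45 on the log2 scale. Asb4 was listed at 0 in both E10.5 libraries.

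Among paternally expressed members, Mest (ENSRNOG00000048088) showed the widest gap, with 15.5 and 1.73 RPKM in E10.5 PGCs, against 251 and 191 RPKM in E9.5 PGCs (-5.04 ± 0.64, limma adjusted p = 6.64e-05). Dlk1 had 2.29 and 3.20 RPKM in E10.5 PGCs, against 123 and 39.9 RPKM (-4.26 ± 0.72, limma adjusted p = 0.000586). Igf2 had 5.57 and 8.27 RPKM in E10.5 PGCs, against 49.0 and 20.7 RPKM (-2.08 ± 0.52, limma adjusted p = 0.00827). For all 3 genes, named because they passed on these values, the E10.5 libraries lay below both E9.5 libraries. Sgce had 6.75 and 6.05 RPKM in E10.5 PGCs, against 52.7 and 32.5 RPKM in E9.5 PGCs (-2.52 ± 0.35, limma adjusted p = 0.000124). Peg3 had 36.1 and 53.5 RPKM in E10.5 PGCs, against 101 and 126 RPKM in E9.5 PGCs (-1.34 ± 0.28). Peg3 therefore stayed above every epiblast library, whose highest value was 5.41 RPKM. Plagl1, Inpp5f, a phosphoinositide phosphatase, Ndn and Impact fell by 1.81, 1.72, 0.96 and 0.77, and Magel2, a MAGE gene next to Ndn, was listed at 0 in both E10.5 libraries.

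Snrpn did not pass, with 0.00756 and 22.7 RPKM in the E10.5 libraries, against 27.2 and 19.8 RPKM at E9.5, with the E10.5 libraries far apart. Inpp5f also split at E10.5, at 0.128 and 5.54 RPKM. Leaving out a single E9.5 or E10.5 library left 16 to 20 members called. Inpp5f was lost without E9.5 replicate 1, E9.5 replicate 2 or E10.5 replicate 1, and its log2 fold change without the last was -0.45. Igf2, Igf2r, Ppp1r9a, Plagl1 and Magel2 each depended on 1 or 2 of these libraries. In a fit of the E9.5 and E10.5 libraries alone, which has 2 residual degrees of freedom, 0 of the 14865 lines passed in limma, 3544 lines and 18 members having an unadjusted p under 0.05. Markers of other cell types fell over the same interval: 6 of 10 endothelial, 7 of 10 mesenchyme and 8 of 9 extraembryonic mesoderm markers, with 0 rising in each list, and 0 of 8 germ cell markers passed (4 at an unadjusted p under 0.05). The E10.5 libraries also had 20.7% and 22.1% of the depth of the E7.75 female library. The part of these differences in the fall of imprinted genes was not tested.

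**Figure D3:**
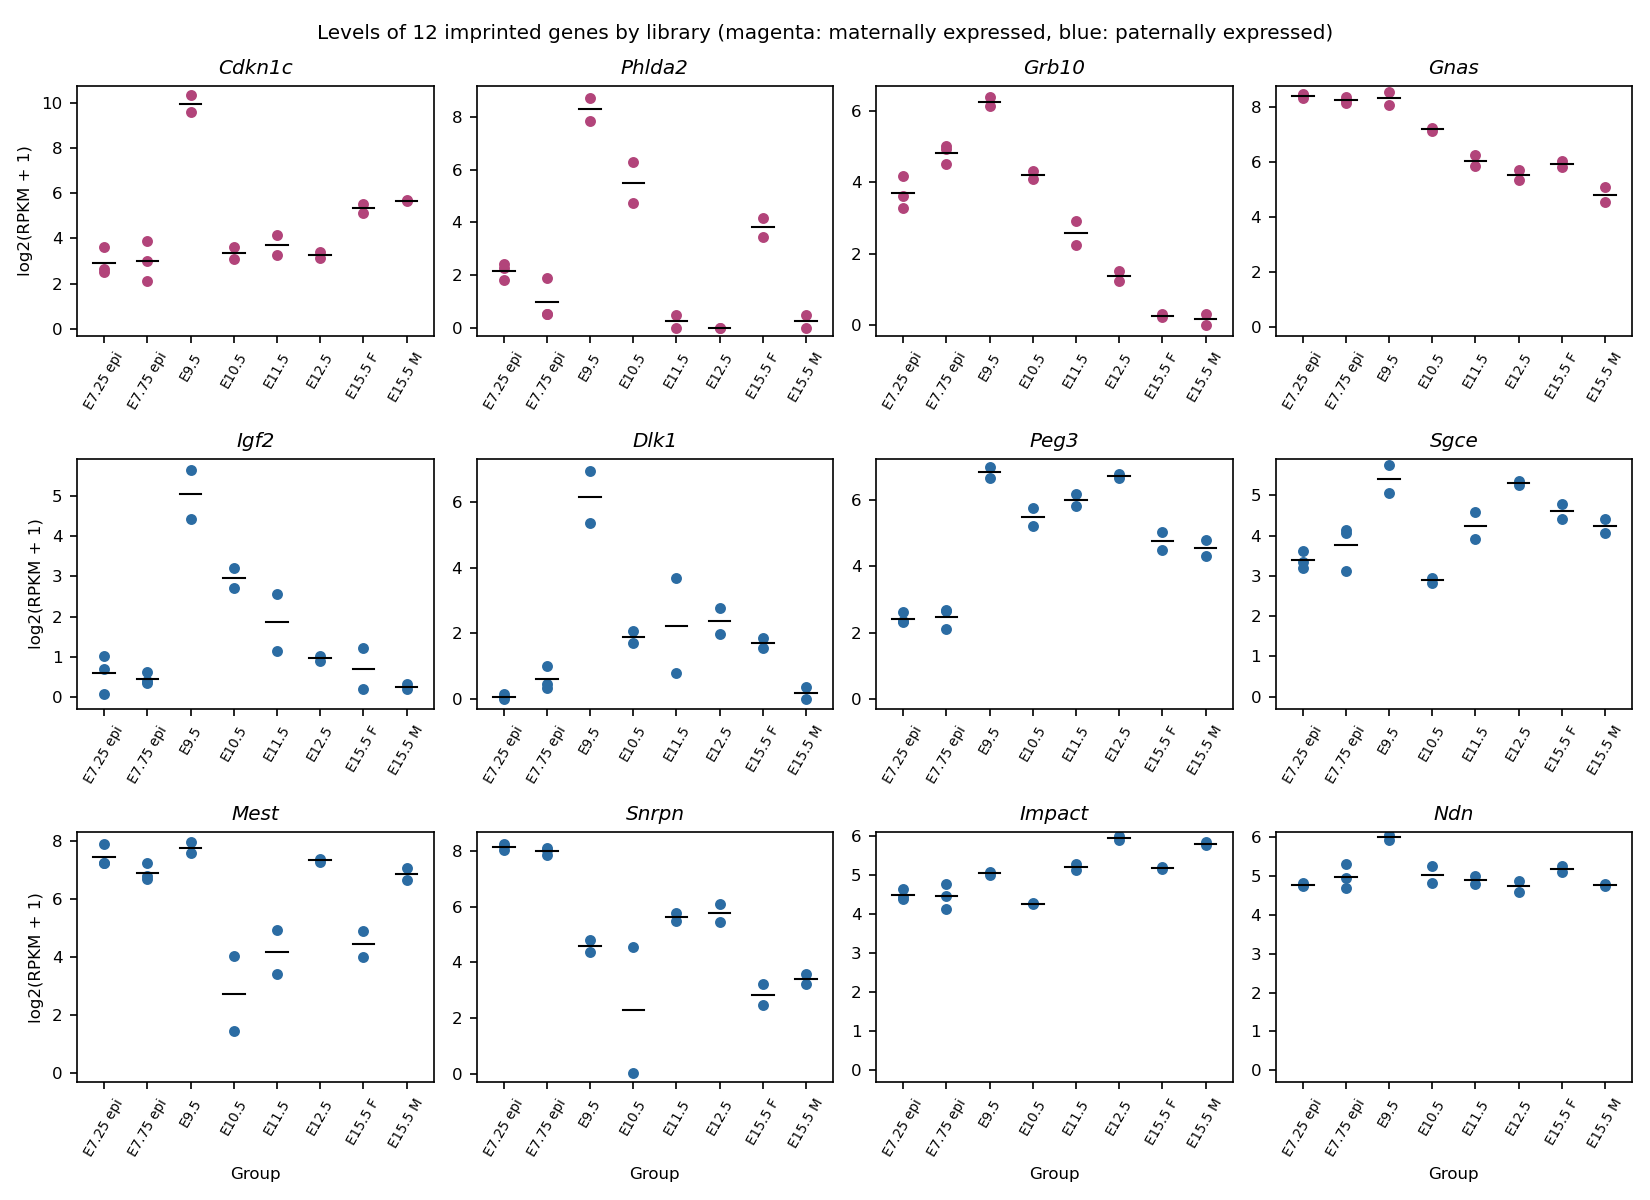
Level of 12 imprinted genes as log2(RPKM + 1) in each library (points) with the mean of the group (line), by group from E7.25 epiblast to E15.5 PGCs, female (F) left of male (M). Grb10 and Gnas are lower at each PGC day from E9.5 to E12.5, while Peg3, Sgce and Mest are lowest at E10.5 among E9.5 to E12.5 PGCs and higher again at E12.5.

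From E10.5 to E12.5, as germ cells settle in the gonad, the members that passed split by parental class. In E11.5 PGCs 6 of 31 members passed relative to E10.5, 3 higher and 3 lower, against 7.19% of all lines (3.59% higher, 3.61% lower). All 3 that rose were paternally expressed (Impact, Sgce and Snrpn) and all 3 that fell were maternally expressed (Gnas, Grb10 and Phlda2). In E12.5 PGCs relative to E11.5, 4 of 31 members passed, against 7.21% of all lines (4.12% higher, 3.09% lower). Impact and Mest, both paternally expressed, rose, while Grb10 and Tssc4, both maternally expressed, fell. The median log2 fold change was -0.10 for maternally and 0.37 for paternally expressed members at E11.5, and 0 and 0.38 at E12.5, against 0.03 and 0.08 for all lines. Without members imprinted only in some tissues or transcripts the maternally expressed median at E11.5 was -0.75. That set leaves out Gnas and Tssc4, so its maternally expressed falls were Grb10 and Phlda2 at E11.5 and Grb10 at E12.5. The difference between the classes was not tested. The E11.5 libraries enter both comparisons.

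The maternally expressed Grb10 declined at each day. It had 6.62 and 3.75 RPKM in E11.5 PGCs, against 16.2 and 18.9 RPKM at E10.5 (log2 fold change -1.62 ± 0.34, limma adjusted p = 0.0121), and 1.85 and 1.35 RPKM in E12.5 PGCs (-1.22 ± 0.34 against E11.5, limma adjusted p = 0.0425). Gnas had 74.9 and 56.7 RPKM in E11.5 PGCs, against 151 and 139 RPKM at E10.5 (-1.14 ± 0.20, limma adjusted p = 0.00537), and 39.7 and 51.3 RPKM at E12.5, a further difference that did not pass. Phlda2 dropped to the bottom of the scale: it was at 0 and 0.382 RPKM in E11.5 PGCs, against 76.9 and 25.9 RPKM at E10.5 (-5.28 ± 0.56, limma adjusted p = 0.000167), and was listed at 0 in both E12.5 libraries. Tssc4, a gene of the same cluster whose product acts in spliceosome assembly in human, had 20.5 and 17.7 RPKM in E12.5 PGCs, against 32.5 and 34.8 RPKM at E11.5 (-0.79 ± 0.22, limma adjusted p = 0.0423).

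The paternally expressed Impact (ENSRNOG00000045844) had 33.9 and 38.0 RPKM in E11.5 PGCs, against 18.3 and 18.3 RPKM at E10.5 (0.93 ± 0.19, limma adjusted p = 0.0104), and 63.1 and 58.7 RPKM at E12.5 (0.75 ± 0.19 against E11.5, limma adjusted p = 0.0271). Its groups did not overlap at any step from E9.5 to E12.5, each a step at which it passed on the same values. Mest had 166 and 155 RPKM in E12.5 PGCs, against 29.4 and 9.73 RPKM at E11.5 (3.16 ± 0.64, limma adjusted p = 0.0095). At E12.5 Mest was thus within the range of epiblast, 104 to 241 RPKM. Sgce had 14.1 and 22.8 RPKM in E11.5 PGCs, against 6.75 and 6.05 RPKM at E10.5 (1.36 ± 0.35, limma adjusted p = 0.0314), and 37.3 and 40.0 RPKM at E12.5. Snrpn had 43.9 and 53.6 RPKM in E11.5 PGCs, against 0.00756 and 22.7 RPKM at E10.5 (3.34 ± 0.90, limma adjusted p = 0.0397). Without E10.5 replicate 1, the library with the near-0 value, the Snrpn difference was 1.06 and did not pass. Peg3 did not pass at either step, but its values were ordered by day, at 55.0 and 71.2 RPKM at E11.5 and 101 and 109 RPKM at E12.5.

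These counts rest on few libraries. In fits of only the groups compared, 0 members passed in limma at either step. At an unadjusted p under 0.05 there were 7 and 8 members, beside 2319 and 3707 of all 14865 lines. Without E11.5 replicate 2 only Phlda2 passed between E11.5 and E10.5 (1 member instead of 6), Sgce was also lost without either E10.5 library, and Snrpn did not pass in 16 of 24 alternatives. Between E12.5 and E11.5, 0 members passed in limma without either E12.5 library (7 and 9 at an unadjusted p under 0.05), 1 without either E11.5 library and 2 without E7.25 male replicate 2. Over all lines the E12.5 to E11.5 count of 1072 was 219 to 487 without a single E11.5 or E12.5 library.

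Over the longer interval, E12.5 PGCs against E9.5 PGCs, both at full depth, 14 of 31 members fell and 1 rose, against 11.9% and 11.3% of all lines, with 23.2% passing in all. Of the maternally expressed members 9 of 15 fell and 0 rose, and of the paternally expressed 5 of 16 fell and 1 rose (Impact). The 14 include Phlda2 and Magel2, listed at 0 in both E12.5 libraries. In a fit of the E12.5 and E9.5 libraries alone 9 members passed instead of 15. Cdkn1c had 7.83 and 9.59 RPKM in E12.5 PGCs, against 1301 and 773 RPKM at E9.5 (-6.70 ± 0.50, limma adjusted p = 7.89e-07). Grb10 fell by 4.89 ± 0.34 (limma adjusted p = 4.13e-07) and Gnas by 2.80 ± 0.20 (limma adjusted p = 5.79e-07) on the log2 scale. Igf2 was at 1.03 and 0.865 RPKM in E12.5 PGCs, against 49.0 and 20.7 RPKM at E9.5 (-4.08 ± 0.52, limma adjusted p = 7.07e-05). Of paternally expressed members with high E9.5 values, Peg3, Sgce and Mest did not pass: Peg3 had 101 and 109 RPKM at E12.5, against 101 and 126 RPKM at E9.5. Plagl1 was lost without E9.5 replicate 1 or E12.5 replicate 1, Ascl2 likewise, Magel2 without E9.5 replicate 2, and Tssc4 without E9.5 replicate 1 or either E12.5 library. The fall at E12.5 relative to E9.5 ran alongside the markers of other cell types, since Hand1 was at 1.24 and 3.13 RPKM at E12.5, against 261 and 245 RPKM at E9.5, and their part was not tested.

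The parental classes can also be followed as summed levels. The 15 maternally expressed members with a line summed to 2427 and 1575 RPKM in E9.5 PGCs, and the 17 paternally expressed to 745 and 654 RPKM. In E12.5 PGCs the maternally expressed sum was 159 and 164 RPKM and the paternally expressed sum 479 and 498 RPKM. The maternally expressed share of the total was 45.5% to 51.1% in the 6 epiblast libraries. By PGC day it was 76.5% and 70.7% at E9.5, 71.3% and 63.8% at E10.5, 45.2% and 40.7% at E11.5, and 24.9% and 24.8% at E12.5. At E15.5 it was 63.4% and 62.3% in female PGCs and 42.8% and 43.0% in male PGCs. Both E12.5 libraries lay below every other library, while E9.5 and E10.5 overlapped. These shares are a description: they weight the most abundant members, above all Cdkn1c and Gnas, and RPKM is relative to the rest of each library. Without Gnas the maternally expressed sum was 179 to 202 RPKM in epiblast, against 488 to 558 RPKM with it. At E12.5 it was 119 and 113 RPKM without Gnas. The lower share at E12.5 than in epiblast therefore rests largely on Gnas, imprinted in mouse only in some tissues or transcripts. At E9.5 Cdkn1c alone made up 1301 and 773 RPKM of the maternally expressed sum, against 11.3 and 7.56 RPKM at E10.5. The place of E9.5 as the day with the highest share therefore rests on Cdkn1c.

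**Figure D4:**
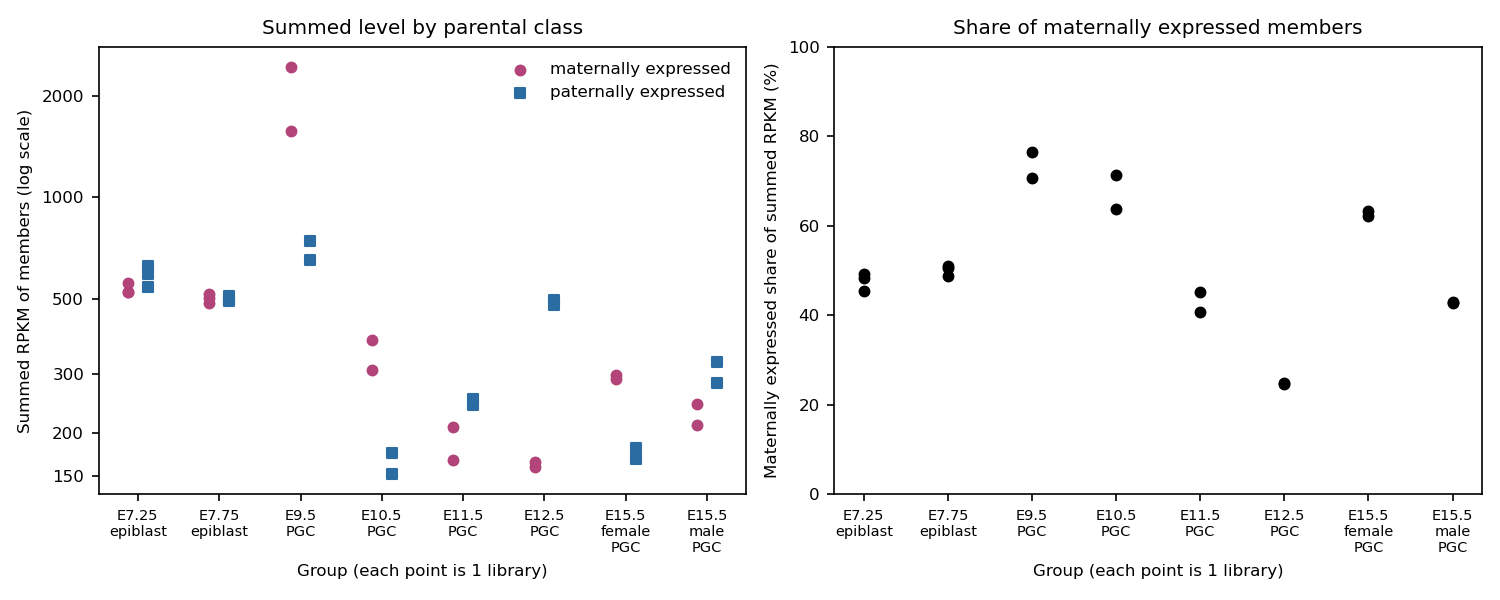
Left, summed RPKM of maternally (circles) and paternally expressed (squares) members in each library on a log scale; right, the maternally expressed share of that total in percent. Groups run from E7.25 epiblast to E15.5 PGCs, with female left of male. The share is highest at E9.5 (76.5% and 70.7%, overlapping E10.5), where Cdkn1c alone adds 1301 and 773 RPKM, and lowest at E12.5 (24.9% and 24.8%).

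At E15.5, when germ cells of the sexes have taken different paths, 4 of 31 members were higher and 4 lower than in E12.5 PGCs, against 6.81% and 8.27% of all lines (15.1% in all). All 4 that rose were maternally expressed. Members counted here as imprinted in mouse only in some tissues or transcripts included Cdkn1c, Cd81 and Ascl2. With such members set aside, 1 maternally expressed member rose (Phlda2) and 2 fell (Grb10 and Igf2r). Cdkn1c had 34.4 and 45.4 RPKM in female and 50.5 and 50.2 RPKM in male E15.5 PGCs, against 7.83 and 9.59 RPKM at E12.5 (log2 fold change 2.24 ± 0.43, limma adjusted p = 0.00315). Cd81 had 103 and 86.5 RPKM in female and 53.7 and 53.9 RPKM in male E15.5 PGCs, against 29.4 and 34.4 RPKM at E12.5 (1.14 ± 0.21, limma adjusted p = 0.00228). Every E15.5 library lay above both E12.5 libraries for these 2 genes, which passed on the same values. Ascl2, low at both days, had 2.90 to 3.98 RPKM at E15.5, against 0.133 and 1.04 RPKM at E12.5 (1.54 ± 0.41, limma adjusted p = 0.0216). Phlda2 rose through the female libraries, at 9.99 and 17.1 RPKM, while the male libraries were at 0.410 and 0 RPKM and both E12.5 libraries were listed at 0.

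Grb10 and Igf2r, which restrain growth factor signalling, were also lower at E15.5, at most 0.242 RPKM for Grb10. Igf2r had 2.56 and 1.67 RPKM in female and 4.07 and 4.08 RPKM in male E15.5 PGCs, against 9.15 and 7.12 RPKM at E12.5 (-1.20 ± 0.27, limma adjusted p = 0.00818). Peg3 had 31.5 and 21.3 RPKM in female and 18.8 and 27.0 RPKM in male E15.5 PGCs, against 101 and 109 RPKM at E12.5 (-2.07 ± 0.24, limma adjusted p = 7.13e-05). Snrpn had 4.55 and 8.22 RPKM in female and 10.9 and 8.30 RPKM in male E15.5 PGCs, against 42.4 and 67.7 RPKM at E12.5 (-2.65 ± 0.78, limma adjusted p = 0.0343). For Peg3 and Snrpn, which passed on these values, no E15.5 library reached an E12.5 library. The median log2 fold change was 0.08 for maternally and -0.68 for paternally expressed members, against 0 for all lines. The maternally expressed median was -0.82 without members imprinted only in some tissues or transcripts, against -0.71 for the paternally expressed, and -0.060 without Kcnq1 and Phlda2, whose E12.5 values were 0, so its sign does not hold. With E12.5 replicate 1 left out 3 members passed and with E12.5 replicate 2 left out 5, instead of 8: Phlda2, Grb10 and Snrpn were lost in both cases, and Ascl2 and Igf2r in the first. Somatic gonad markers summed to 18.004 to 37.0 RPKM at E15.5, against 10.9 and 11.2 RPKM at E12.5, most of it Lhx9 (15.1 to 29.5 RPKM at E15.5), while Nr5a1 reached at most 1.66 RPKM and Foxl2 was listed at 0.

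Between the sexes at E15.5, 5 of 31 members differed, 2 higher and 3 lower in female PGCs, against 4.33% and 5.35% of all lines (9.68% in all). The 2 that were higher in female PGCs are maternally expressed and the 3 that were lower are paternally expressed. Of the 2, Gnas is imprinted in mouse only in some tissues or transcripts. Phlda2 had 9.99 and 17.1 RPKM in female PGCs, against 0.410 and 0 RPKM in male PGCs (3.57 ± 0.56, limma adjusted p = 0.00121). Gnas had 55.7 and 64.2 RPKM in female PGCs, against 32.9 and 22.5 RPKM in male PGCs (1.11 ± 0.20, limma adjusted p = 0.00322). Both genes, named because they passed on these values, were separated between the sexes without overlap. Mest had 14.99 and 28.9 RPKM in female PGCs, against 133 and 101 RPKM in male PGCs (-2.42 ± 0.64, limma adjusted p = 0.0286). Nnat, a proteolipid first found in the neonatal brain, had 3.55 and 3.34 RPKM in female PGCs, against 24.1 and 15.1 RPKM in male PGCs (-2.18 ± 0.59, limma adjusted p = 0.0316). Impact had 34.4 and 35.9 RPKM in female PGCs, against 56.2 and 54.0 RPKM in male PGCs (-0.63 ± 0.19, limma adjusted p = 0.0455).

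Only Phlda2 and Gnas passed between the sexes without any 1 of the 4 E15.5 libraries, while Mest, Nnat and Impact were lost each time. In a fit of the female and male E15.5 libraries alone 0 of 31 members passed in limma, Phlda2 and Gnas included. There 10 members had an unadjusted p under 0.05, beside 3183 of all 14865 lines. Mest in male PGCs, at 133 and 101 RPKM, was below its E12.5 values of 166 and 155 RPKM. Phlda2 moved with genes of the trophoblast list: in E15.5 PGCs Cdx2 had 9.15 and 9.08 RPKM in female and 0.376 and 0.224 RPKM in male, Gata3 14.1 and 12.96 RPKM in female and 0.867 and 0.347 RPKM in male, and Hand1 20.8 and 17.5 RPKM in female and 1.87 and 2.39 RPKM in male. Of the 4 tested genes of that list, these 3 were higher in female PGCs, while Eomes did not pass. The whole trophoblast list of 8 genes summed to 44.6 and 40.1 RPKM in female and 4.49 and 5.65 RPKM in male PGCs, with the hormone genes Prl3d1 and Prl2c1 at 0. Of 7 tested somatic gonad markers 1 passed between the sexes (14.3%, against 9.68% of all lines): Amh, which was lower in female PGCs. The part of these marker genes in the sex difference was not tested.

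**Figure D5:**
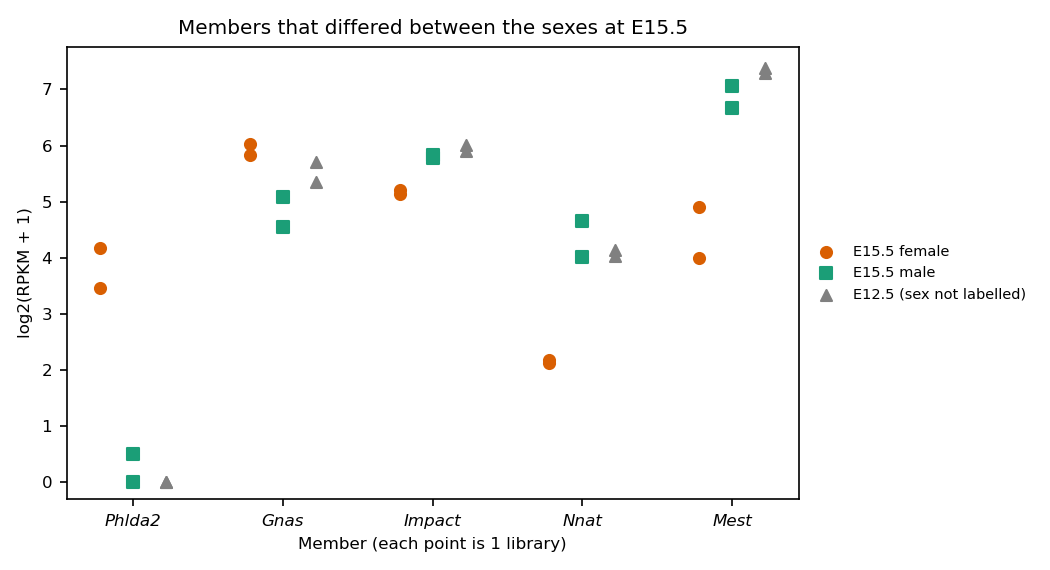
Level of the 5 imprinted genes that differed between the sexes at E15.5, as log2(RPKM + 1), in each female (circles) and male (squares) E15.5 PGC library and in each E12.5 PGC library (triangles, sex not labelled). Female libraries lie above male libraries for Phlda2 and Gnas and below them for Impact, Nnat and Mest, without overlap.

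Over all days, PGCs differed from epiblast in both directions. Relative to epiblast 9 of 31 members rose and 10 fell in PGCs, against 32.1% and 26.4% of all lines (58.5% in all), so the share of imprinted genes that passed, 61.3%, lay near that background. Peg3 rose by a log2 fold change of 3.28 ± 0.14 (limma adjusted p = 1.67e-10), Cdkn1c by 2.25 ± 0.25 and Dlk1 by 2.09 ± 0.36. Peg3 was higher in 12 of 12 PGC libraries than in any epiblast library, with 18.8 RPKM as its lowest PGC value. Snrpn fell by 3.99 ± 0.45 (limma adjusted p = 3.65e-06), Nap1l5, a nucleosome assembly protein relative, by 2.57 ± 0.49, Magel2 by 2.32 ± 0.19, Ascl2 by 2.14 ± 0.24 and Gnas by 2.04 ± 0.10. Snrpn lay between 0.00756 and 67.7 RPKM in PGCs, against 230 to 303 RPKM in epiblast. This comparison averages days that differ: without the E9.5 libraries Phlda2 and Slc22a18 did not pass, and Phlda2 differed by 0.40. With PGC and epiblast fitted as 2 groups, a choice made after seeing the data, 9 of the 31 members passed. Cdkn1c, Phlda2, Slc22a18, Tssc4, Igf2, Igf2r, Grb10, Sgce, Usp29 and Mest were lost in that fit. The share of all lines that passed in it is not given here. Dcn, a matrix proteoglycan, was lost without the E7.25 or the E7.75 female library, and Usp29, a deubiquitinase gene beside Peg3, without E7.75 male replicate 1.

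Within the epiblast, E7.75 against E7.25, 0 of 31 members passed in limma, and 4 had an unadjusted p under 0.05, beside 1300 of all 14865 lines. Over all lines 0.269% passed, 0.101% higher and 0.168% lower. The paternally expressed Nap1l5 had 7.15, 50.7 and 49.1 RPKM at E7.25, so 1 library lay far below the others.

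Genes of an imprinted domain did not always move together. In the GRCr8 gene order Ascl2, Cd81, Tssc4, Kcnq1, Cdkn1c, Slc22a18 and Phlda2 form a row, the domain controlled in mouse from the Kcnq1ot1 promoter. Of these 7 genes, Cdkn1c, Phlda2 and Slc22a18 rose at E9.5 relative to epiblast, Ascl2 fell (a call lost in most alternatives), and Cd81, Tssc4 and the potassium channel gene Kcnq1 did not pass. Kcnq1 exceeded 1 RPKM in 2 libraries only, at 1.62 RPKM in an E9.5 and 2.63 RPKM in an E10.5 library. In the Snrpn domain, Snrpn was at most 67.7 RPKM in any PGC library, while Ndn, with 25 annotated genes between them, lay between 23.0 and 65.0 RPKM in PGCs and 24.8 to 38.9 RPKM in epiblast. Magel2 lay at or under 0.447 RPKM in PGCs from E10.5 on, against 3.75 to 8.32 RPKM in epiblast. Mkrn3, a ubiquitin ligase, and Peg12 passed in none of the 9 comparisons. Beside Peg3, Usp29 stayed at or under 2.48 RPKM and the zinc finger gene Zim1 at or under 1.20 RPKM in every library. Sgce and Asb4, of the Peg10 domain, both rose at E9.5 and fell at E10.5. Of the pair, the paternally expressed Sgce was at 37.3 and 40.0 RPKM at E12.5, and the maternally expressed Asb4 at 1.45 and 3.51 RPKM.

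Genes that set, keep and erase imprints were examined beside the members. Of 13 tested genes for setting or keeping imprints, 9 fell and 3 rose in PGCs relative to epiblast (92.3%, against 58.5% of all lines). The de novo DNA methyltransferase gene Dnmt3b lay between 3.04 and 26.2 RPKM in PGCs, against 915 to 1343 RPKM in epiblast (log2 fold change -6.63 ± 0.20, limma adjusted p = 7.1e-12). Dnmt3a fell by 4.79 ± 0.16 and Dnmt3l, their cofactor, by 4.37 ± 0.16, while the maintenance methyltransferase gene Dnmt1 fell by 0.58 ± 0.20 and Uhrf1, which guides DNMT1 to DNA, by 1.74 ± 0.15. Zfp57 was lower by 3.67 ± 0.68 at E12.5 than at E9.5 (limma adjusted p = 0.0014), at 1.12 and 0 RPKM, against 16.3 and 18.9 RPKM. Dppa3, the histone demethylase gene Kdm1b and the histone methyltransferase gene Setd2 rose in PGCs relative to epiblast. Of Dppa3, which shields maternal methylation in mouse eggs, 85.7 and 81.7 RPKM were found at E12.5, against 0.485 and 0.498 RPKM at E11.5, and at E15.5 it had 49.5 and 73.8 RPKM in female and 0.389 and 0.401 RPKM in male PGCs.

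Of 9 tested genes of demethylation, 3 rose (Gadd45a, Gadd45b and Tet2) and 3 fell (Tdg, Tet1 and Tet3) in PGCs relative to epiblast, a share of 66.7% that lay near the 58.5% of all lines. Tet1, which oxidises methylcytosine, had 2.51 and 0.906 RPKM at E10.5, 9.72 and 12.1 RPKM at E11.5 and 25.6 and 24.6 RPKM at E12.5. Tet1 was higher by 2.19 ± 0.32 at E11.5 than at E10.5 (limma adjusted p = 0.0018) and by 1.14 ± 0.32 at E12.5 than at E11.5 (limma adjusted p = 0.048). Tet2 had 5.83 and 5.02 RPKM at E12.5, against 0.771 and 0.298 RPKM at E9.5 (2.08 ± 0.39, limma adjusted p = 0.0015). DNA methylation was not analysed here.

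A second list of 36 genes imprinted in mouse in some tissues or crosses, most of them outside the members' core domains, served as a comparison. It had 30 genes with a line and 23 tested. In PGCs relative to epiblast 12 rose and 4 fell (69.6%, against 58.5% of all lines), led by Ins2 (2.79 ± 0.24), Gab1 (1.91 ± 0.27) and Trappc9 (1.85 ± 0.29) upward and Calcr (-1.69 ± 0.28), Atp10a (-1.43 ± 0.26) and Ano1 (-0.80 ± 0.22) downward. At E10.5 relative to E9.5, 3 of the 23 rose and 4 fell (30.4%, against 29.9% of all lines), with a median of -0.18, while 19 of 31 members fell. Between E12.5 and E11.5, 0 of the 23 passed in limma (3 at an unadjusted p under 0.05, beside 3080 of all 14865 lines). The amino acid transporter gene Slc38a4 rose at E9.5 relative to E7.75 epiblast and fell at E10.5, as many members did, with 57.7 and 63.4 RPKM at E9.5. Copg2, which overlaps the 3′ end of Mest in mouse, rose at E15.5 relative to E12.5, at 144 and 126 RPKM in female and 95.8 and 124 RPKM in male PGCs, against 73.0 and 70.6 RPKM.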

How the data were processed

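RNA-seq was made from 18 libraries (PicoPure RNA, SMART-Seq v4). Per the submitters' processing notes, the rn6 build, TopHat2 2.1.0 and Cufflinks 2.2.1 were used, with cutadapt 1.14 and bcl2fastq 2.18.0.12 also named, and the authors deposited 1 table of RPKM, so read depth is not given and was estimated only relative to a library. Groups came from the labels. The values were tested with limma 3.58.1 (R 4.3.3, trend) on log2(RPKM + 1), over the 14865 lines with at least 1 RPKM in at least 2 libraries. The 8 groups (epiblast sexes together, E15.5 sexes apart) shared 1 estimate of spread with 10 residual degrees of freedom. Benjamini-Hochberg adjustment ran over all these lines, at 0.05. Fold changes are on the log2(RPKM + 1) scale, which understates those of low genes. Epiblast means weight both days equally, and PGC means weight the 6 PGC groups equally. Where a symbol had several lines, that with the highest mean was used; Gnas had 2.

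Members and gene lists were chosen with earlier results of these data known. Any member could be named, in each comparison first those with the largest changes that passed; of each regulator list the 3 with the largest rise and fall were named, with Dnmt1, Uhrf1, Tet1 and Tet2. RefSeq tables matched 36 of 36 member symbols; since their build (GRCr8) is not that of the files, they gave names, gene order and promoter windows only. The test was checked on simulated data. Alternatives were another pseudocount (0.1), no filter, quantile normalization, a fit of only the groups compared, a replicate block, summed lines, and leaving out libraries.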

Additional observations from a re-analysis of the deposited data

Results flagged for a closer look

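The members that differed between the sexes at E15.5 were also flagged as differing in their change from E12.5. The E12.5 libraries carry no sex label and cancel out, so this is the same limma contrast and adds no evidence. The log2 change in female minus that in male PGCs was 3.57 for Phlda2, 1.11 for Gnas, -0.63 for Impact, -2.18 for Nnat and -2.42 for Mest. Each was shown by 2 of 2 female against 2 of 2 male libraries without overlap, the same libraries on which they were called. The calls of Mest, Nnat and Impact were lost when any 1 of these libraries was left out.

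Among the 4 E15.5 libraries, a single library stood apart from the others for 4 members, all of them low: Igf2 at 1.32 RPKM in female replicate 2, Zim1 at 0.0829 RPKM in female replicate 2, Dcn at 1.40 RPKM in male replicate 2 and Magel2 at 0.00747 RPKM in male replicate 1. The other 3 libraries were at 0 for Zim1, Dcn and Magel2. Chance gives such a gap in about 1 in 20 groups of continuous values. The rate does not apply to these 3 members, since any single value above 0 among zeros gives it. The search covered the 31 tested members in epiblast and in E15.5 PGCs, so some such gaps are expected, and that of Igf2 is not unusual.

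A line outside the members, Mir675, a microRNA gene that lies within H19 in mouse and human, was picked after its values were seen. It rose in PGCs relative to epiblast by a log2 fold change of 3.85 (SE 1.09, limma adjusted p = 0.00755), with 936 and 475 RPKM at E9.5, 849 and 556 at E10.5, 0 and 769 at E11.5, 559 and 781 at E12.5, and at E15.5 60.9 and 143 RPKM in female and 85.8 and 22.1 RPKM in male PGCs. In epiblast it lay between 0 and 114 RPKM. Such a short line gives a large RPKM from few reads.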

How the results depend on the processing

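Of 2217 recomputed calls of members (71 calls under 24 alternatives each, and the 19 of PGC against epiblast under 27), 2016 passed again with the same direction, 201 no longer passed and none reversed. Many of these alternatives could not reverse a direction. Leaving out a library of a group not compared, fitting only the groups compared or dropping the filter does not change the fold change itself. Fitted on only the groups compared, members called were 9 instead of 14 for E9.5 against E7.75, 9 instead of 15 for E12.5 against E9.5, and 0 for E10.5 against E9.5, E11.5 against E10.5, E12.5 against E11.5 and female against male (18, 7, 8 and 10 at an unadjusted p under 0.05 in limma). All lines called there were 2204, 1093, 0, 56, 0 and 0 in that order, and 9 for E7.75 against E7.25 epiblast, against 4108, 3449, 4443, 1069, 1072, 1439 and 40 as reported. For E10.5, E11.5, E12.5 against E11.5 and the sexes in these fits, 3544, 2319, 3707 and 3183 of all 14865 lines had an unadjusted p under 0.05. Without the filter 2 members passed for E12.5 against E11.5 and 2 between the sexes, and lines called were 552 for E11.5 against E10.5 and 22 between the epiblast days. With a pseudocount of 0.1, 3 members passed between the sexes. With PGC and epiblast as 2 groups, 9 instead of 19 members passed.

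Leaving out 1 library at a time gave 18 to 21 members for PGC against epiblast, 12 to 16 for E9.5 against E7.75, 16 to 20 for E10.5 against E9.5, 1 to 7 for E11.5 against E10.5, 0 to 5 for E12.5 against E11.5, 12 to 16 for E12.5 against E9.5, 3 to 10 for E15.5 against E12.5, 2 to 6 between the sexes and 0 to 0 between the epiblast days. A library left alone in its group was assumed to vary like the other groups. Lines called ranged from 347 to 1357, 219 to 1313, 2077 to 3723, 884 to 2476, 635 to 1658 and 16 to 50 for E11.5, E12.5 (against E11.5, then E9.5), E15.5, the sexes and the epiblast days.

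Without members imprinted in mouse only in some tissues or transcripts, the median of maternally expressed members was 2.11 instead of 0.60 at E9.5, -1.63 instead of -1.18 at E10.5, -0.75 instead of -0.10 at E11.5, -3.22 instead of -1.19 for E12.5 against E9.5, and -0.82 instead of 0.08 at E15.5; 6 of 15 were left. Cdkn1c was among the members left out. The cause of these shifts was not tested. Same-numbered libraries did not deviate together (r between -0.13 and 0.06 over 28 pairs); with a replicate block 21, 14, 19, 6, 3, 15, 9, 5 and 0 members passed in the 9 comparisons, and Ascl2 at E9.5, Grb10 at E12.5 and Impact between the sexes were lost. Low depth limits E10.5 and E11.5, where low genes may be listed at 0.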

Other observations

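The second Gnas line of the table (ENSRNOG00000025889) differed more than the first between PGCs and epiblast. It had 1.70 and 3.56 RPKM at E9.5 and at most 0.414 RPKM in later PGCs, against 9.05 to 13.1 RPKM in epiblast, a log2 fold change of -3.07 ± 0.17 in PGCs relative to epiblast (limma adjusted p = 2.01e-09), against -2.04 for the first line. In some other comparisons it moved less: it fell by 1.78 at E12.5 relative to E9.5, against 2.80 for the first line.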
